A study of Mus musculus with 2 samples.

Results

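Endothelial cells line blood and lymphatic vessels, and 32 genes known to mark them were followed here in the branching mouse lung. The genes were fixed as a list of names and matched by NCBI gene number, and all 32 were found among the 41709 entries of the deposited tables. One library came from C57BL/6 lungs at the embryonic age E14.5 whose genotype is labelled as control. The other came from C57BL/6 lungs of the same age that are labelled as Prmt5 knockdown and whose title names Shh together with Prmt5; the way either gene was altered, and in which cells, is not given in the sources used here. Each library pooled 7 lungs and was sequenced once, so no spread between replicates exists, no p-value is given, and every difference below is between these 2 libraries.

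In the growing lung a capillary network surrounds the epithelial buds, arteries and veins follow the airways, and lymphatic vessels sprout from veins. Vessel identity is set by transcription factors of the SOXF group (Sox7, Sox17 and Sox18) and the ETS group (Erg and Fli1), and lymphatic identity by Prox1. VE-cadherin (Cdh5) and PECAM1 hold endothelial cells together, and receptors such as TIE1 and APLNR pass on signals from the surrounding tissue.

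Values are given in 3 ways. Reads are the deposited counts. FPKM is the deposited count divided by library total and gene length, the scale used for levels of different genes, which depends on the authors' gene lengths. The log2 ratio is the difference of knockdown over control after scaling by the trimmed mean of M values, and its bracketed 95% interval covers counting error only. A gene was taken as measured with at least 50 reads in 1 library, and it passed the rule of size when it differed at least 1.5-fold and its interval excluded no change. Gene positions are those of RefSeq on GRCm38.p6, and exon overlaps are those of the GENCODE M21 annotation on GRCm38.

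Endothelial genes were more often lower than higher in the knockdown library, with ratios from 2.78-fold lower (Sox17) to 4.38-fold higher (Prox1). All 32 were measured, with at least 132 control and 203 knockdown reads each. Of these, 13 were lower past the rule, a share of 40.6%, against 12.3% of the 14569 measured genes. Another 5 were higher past the rule, 15.6% against 20.7% of measured genes, and 14 did not pass. The median log2 ratio was -0.46 over the 32 genes and -0.01 over all measured genes, and 22 of the 32 lay below 0 against 50.6% of measured genes. The genes were picked with earlier results of these data known, so these shares describe the list and test nothing. The shares of 12.3% lower and 20.7% higher are also the background for the counts of every smaller list below. Several genes lay close to the threshold: Cdh5, Sox7, Fli1 and Cd34 did not pass with DESeq2 size factors, nor Ptprb with FPKM at a pseudocount of 1, whereas Pecam1, Tie1 and Plvap passed as lower with scaling by total counts.

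**Figure D1:**
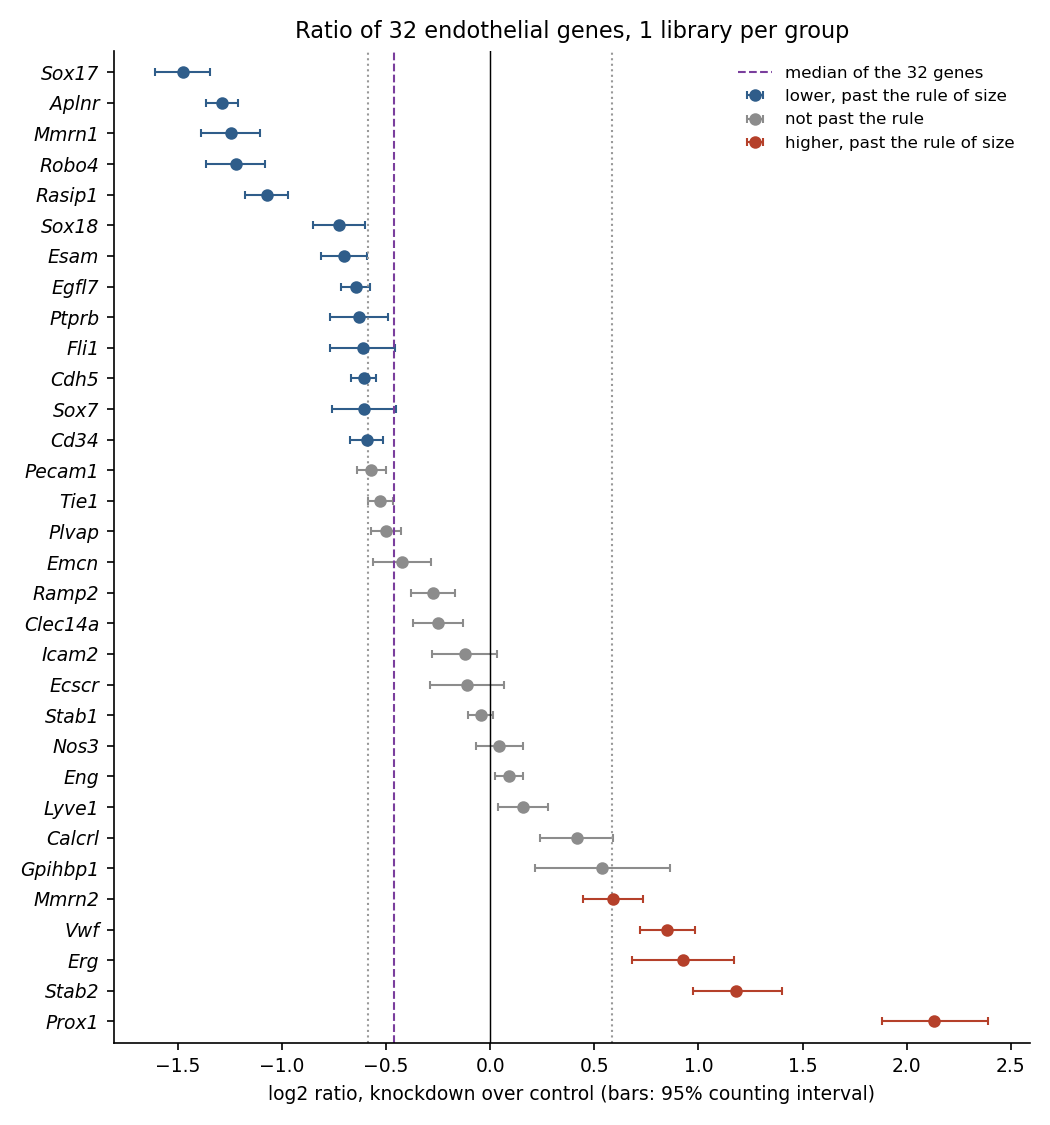
Log2 ratio of knockdown over control (horizontal axis) for each of the 32 genes, ordered from lowest to highest. Points are single ratios from 1 library per group and bars are 95% counting intervals; dotted lines mark a 1.5-fold difference and the dashed line the median of -0.46. Sox17 (-1.47) is at the low end and Prox1 (2.13) at the high end.

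The reads of all 32 genes together made up 0.270% of the control library (exact Clopper-Pearson interval 0.268% to 0.272%) and 0.186% of the knockdown library (0.184% to 0.188%). In whole-lung RNA, fewer endothelial cells and less endothelial RNA per cell cannot be told apart. The 2 libraries also differed in other tissues. All 10 hepatocyte genes outside the 32 were higher in the knockdown library (median log2 ratio 7.40), and their share of reads went from 0.00939% to 1.15%. All 11 heart muscle genes outside the 32 were higher too (median 5.66, 0.0234% and 0.660% of reads), as were 10 of 12 red blood cell genes (median 2.14, 1.20% and 3.82% of reads). None of these markers was at 0 in the control library. Lung epithelial genes went the other way, with 11 of 14 lower and none higher (median -2.12). The same held for regulators of lung mesenchyme, with 9 of 10 lower and none higher (median -1.74). The part of these tissue differences in the endothelial values was not tested.

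Depth was 22581490 counted reads for control lungs and 25829281 for knockdown lungs. Prmt5, the labelled target, had 2704 and 2127 reads (log2 ratio -0.43, -0.51 to -0.35), which did not pass the rule. Shh, named in the title, had 1124 and 109 reads (log2 ratio -3.44, -3.75 to -3.17).

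Promoter letters are shown first for 6 of the genes, since endothelial promoters are known for ETS sites and the members below differ in direction. RefSeq promoter windows on GRCm38.p6, running from 250 bases before to 50 bases after a start site, were available for 14 of the 32 genes in 19 windows. The genes without a window in that table were Pecam1, Cdh5, Sox7, Sox17, Sox18, Esam, Ramp2, Ecscr, Plvap, Gpihbp1, Fli1, Mmrn2, Lyve1, Nos3, Vwf, Icam2, Ptprb and Aplnr. The 250 bases before the start are printed 5′ to 3′ on the strand of the gene. They cover the lowest of the 14 genes (Mmrn1), a pair with a FOX:ETS word (Egfl7 and Emcn), a gene near no change (Eng) and the 2 of highest ratio with at most 30 annotated exon bases in the stretch (Erg and Prox1). Capitals mark 6 words, read on both strands. The ETS words were AGGAAG and the less frequent form CCGGAAG. The composite word of FOX with ETS factors was AACAGGAA. For SOX factors the words were ACAATG and its close variant ACAAAG. The GATA word was AGATAA.

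Mmrn1, plus strand, chr6:60944067-60944316: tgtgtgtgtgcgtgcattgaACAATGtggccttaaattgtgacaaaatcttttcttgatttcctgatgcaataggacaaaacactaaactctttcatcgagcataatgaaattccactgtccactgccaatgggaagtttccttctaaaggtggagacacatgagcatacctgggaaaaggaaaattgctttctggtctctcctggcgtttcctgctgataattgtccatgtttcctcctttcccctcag
Egfl7, plus strand, chr2:26580833-26581082: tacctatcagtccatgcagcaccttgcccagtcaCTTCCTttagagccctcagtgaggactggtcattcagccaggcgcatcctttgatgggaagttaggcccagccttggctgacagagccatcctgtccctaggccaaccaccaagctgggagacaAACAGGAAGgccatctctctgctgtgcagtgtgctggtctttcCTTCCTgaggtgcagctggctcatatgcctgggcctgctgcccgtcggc
Emcn, plus strand, chr3:137340828-137341077: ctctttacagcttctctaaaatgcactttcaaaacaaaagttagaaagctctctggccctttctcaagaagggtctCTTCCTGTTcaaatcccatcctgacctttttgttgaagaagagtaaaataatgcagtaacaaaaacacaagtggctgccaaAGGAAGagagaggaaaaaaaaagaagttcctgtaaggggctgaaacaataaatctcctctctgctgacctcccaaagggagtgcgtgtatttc
Eng, plus strand, chr2:32646345-32646594: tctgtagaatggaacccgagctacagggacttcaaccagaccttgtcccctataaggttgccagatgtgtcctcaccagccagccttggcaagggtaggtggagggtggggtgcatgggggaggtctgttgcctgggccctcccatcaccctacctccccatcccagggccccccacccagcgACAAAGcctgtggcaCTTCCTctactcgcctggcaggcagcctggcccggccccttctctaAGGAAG
Erg, minus strand, chr16:95586594-95586843: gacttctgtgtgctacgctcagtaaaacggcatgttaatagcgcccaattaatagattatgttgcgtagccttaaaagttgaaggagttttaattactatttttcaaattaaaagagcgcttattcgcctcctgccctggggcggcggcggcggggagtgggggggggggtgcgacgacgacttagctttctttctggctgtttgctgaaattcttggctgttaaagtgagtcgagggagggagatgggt
Prox1, minus strand, chr1:190170828-190171077: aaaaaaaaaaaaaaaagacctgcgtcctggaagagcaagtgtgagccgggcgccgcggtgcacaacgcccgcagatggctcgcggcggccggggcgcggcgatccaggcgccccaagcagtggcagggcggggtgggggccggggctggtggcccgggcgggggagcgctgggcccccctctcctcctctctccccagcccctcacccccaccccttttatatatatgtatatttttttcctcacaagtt

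In the Egfl7 window AGGAAG stood 216, 89 and 49 bases before the start, and the FOX:ETS word AACAGGAA, which overlaps the ETS word, began 92 bases before it. Emcn held AGGAAG at 174 and 93 bases before the start and AACAGGAA at 173 bases, with the pair at 174 and 173 bases overlapping on the other strand. Eng held AGGAAG at 52 and 6 bases and ACAAAG at 67 bases before the start. Mmrn1 held ACAATG at 230 bases before the start. None of the words was found in the printed stretches of Erg and Prox1, which says only that these letters are not in this window.

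Over all windows, AGGAAG was found in 11 of the 14 genes (Calcrl, Cd34, Egfl7, Emcn, Eng, Erg, Rasip1, Robo4, Stab1, Stab2 and Tie1), against 38.4% of the 27025 genes in the promoter table. A gene counted when any of its windows held the word. By window, AGGAAG was in 12 of the 19 (63.2%), against 35.4% of all 32851 windows. AACAGGAA was found in 3 of 14 (Calcrl, Egfl7 and Emcn), against 2.96% of genes. CCGGAAG was in none of the 14 and in 9.93% of genes, ACAATG in 3 of 14 and 14.3%, ACAAAG in 3 of 14 and 21.02%, and AGATAA in 1 of 14 and 12.7%. Genes with AGGAAG included both lower ones (Robo4, log2 ratio -1.22, and Rasip1, -1.07) and higher ones (Stab2, 1.18, and Erg, 0.92). In Erg the word lay in a window that is not printed. The limit on exon bases applied to the printed stretches only. Annotated exons cover all 250 bases before the Rasip1 start, 212 for Tie1, 145 for Calcrl, 83 for Stab2 and 75 for Robo4. The first windows of the 14 genes had a median ratio of observed to expected CpG of 0.276, against 0.389 over all genes, and 2 of the 14, Erg and Prox1, exceeded 0.6, against 36.4% of all genes. The matches describe letters in the reference and not binding.

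Junction and cell surface genes shared 1 direction. All 9 had a log2 ratio below 0, against 50.6% of measured genes. Of the 9, 4 passed the rule as lower, 44.4% against 12.3% of measured genes (median -0.57). Cdh5, the VE-cadherin of endothelial junctions (chromosome 8, 104101613 to 104144504), was counted with 5625 control and 3914 knockdown reads, or 62.1 and 37.8 FPKM. Its log2 ratio was -0.61 (-0.67 to -0.55). Pecam1, an adhesion molecule of the same junctions (chromosome 11, 106654213 to 106715281), had 4036 and 2879 reads, 53.8 and 33.5 FPKM, and a log2 ratio of -0.57 (-0.64 to -0.50), just short of 1.5-fold. Cd34, a sialomucin of endothelial and blood progenitor cells, was just inside it, with 3156 and 2218 reads and a log2 ratio of -0.59 (-0.67 to -0.51). Cdh5 and Pecam1 therefore stood on either side of the threshold with nearly equal ratios: the difference between their log2 ratios was 0.04 (exact conditional interval -0.06 to 0.13), a comparison that does not depend on how the libraries are scaled.

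The lowest gene of the junction and surface group was Rasip1, an effector of RAS-family GTPases needed for vessel lumens (chromosome 7, 45627537 to 45639092). It had 2345 and 1181 reads, 32.9 and 14.51 FPKM, and was 2.10-fold lower (log2 ratio -1.07, -1.18 to -0.97). In the annotation 42.9% of its exon bases overlap exons of other genes, among them Izumo1 on the same strand, so reads cannot be assigned to Rasip1 with certainty. Esam, an adhesion molecule of tight junctions, was 1.63-fold lower on 1672 and 1090 reads (log2 ratio -0.70, -0.81 to -0.59). The sialomucin Emcn (984 and 778 reads, log2 ratio -0.42) and the C-type lectin Clec14a (1201 and 1069 reads, -0.25) were nearer to no change. Icam2, a ligand of leukocyte integrins (682 and 664 reads, log2 ratio -0.12, -0.28 to 0.03), and Ecscr, a regulator of endothelial migration (530 and 520 reads, -0.11, -0.29 to 0.07), had intervals that include no change. The junction and surface group thus ran from 2.10-fold lower for Rasip1 and 1.63-fold lower for Esam to differences not detectable at this depth.

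Among junction partners outside the 32 genes, 1 of 17 was lower past the rule, none was higher and the median was 0.06. The lower one was Afdn, which links junctions to actin (4252 and 2560 reads, log2 ratio -0.82). Most of these partners are known in many cell types.

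Receptors and signalling genes ranged from 2.44-fold lower to small differences of either sign. Of 8 genes 3 passed as lower, 37.5% against 12.3% of measured genes, and none as higher, against 20.7% (median -0.40). Aplnr, the apelin receptor of sprouting vessels and venous cells (chromosome 2, 85136360 to 85139923), had 4607 and 2000 reads, 57.2 and 21.7 FPKM, and was 2.44-fold lower (log2 ratio -1.29, -1.36 to -1.21). Its ligand gene Apln, no member of the list, had 974 and 421 reads and the same log2 ratio to 2 decimals (-1.29, -1.46 to -1.13). The other ligand gene Apela was higher on few reads (16 and 68, log2 ratio 1.97).

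Robo4, an endothelial roundabout receptor that steadies vessels (chromosome 9, 37401902 to 37414023), had 1296 and 589 reads, 15.9 and 6.32 FPKM, and was 2.33-fold lower (log2 ratio -1.22, -1.36 to -1.08). Relative to Cdh5 in the same libraries it was 1.53-fold lower (difference of log2 ratios -0.61, -0.77 to -0.46). Of 6 related SLIT, ROBO and UNC5 genes 3 were also lower and none higher: the receptors Robo2 (-1.28), Unc5c (-1.17) and Robo1 (-0.69). Those receptors are also expressed outside the endothelium.

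The angiopoietin receptor relative Tie1 had 5538 and 4075 reads, 63.2 and 40.7 FPKM (log2 ratio -0.53, -0.59 to -0.47), and did not pass the rule. Ptprb, the phosphatase VE-PTP that acts on TIE receptors, had 1053 and 722 reads (log2 ratio -0.63, -0.77 to -0.49) and did. The difference between the pair was 0.10 on the log2 scale (-0.05 to 0.25), within counting error. Of 13 VEGF, angiopoietin and TIE partners 3 were lower and none higher (median -0.07), namely the growth factors Vegfd (-0.86) and Vegfa (-0.82) and the lymphatic receptor Flt4 (-0.62). The other 10, among them all the remaining receptors of the list, did not pass. Which cells made the growth factor RNA was not tested.

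Calcrl and Ramp2 encode the 2 chains of the endothelial adrenomedullin receptor, and neither passed the rule. Ramp2, the accessory chain, had 1569 and 1377 reads (log2 ratio -0.27, -0.38 to -0.17), and 33.4% of its exon bases overlap other exons, those of Vps25 on the same strand. Calcrl, the receptor chain, had 464 and 656 reads (0.42, 0.24 to 0.59). Ramp2 relative to Calcrl was 1.61-fold lower (difference of log2 ratios -0.69, -0.89 to -0.48), a difference beyond counting error. The alternative chains Ramp3 (18 and 86 reads, log2 ratio 2.14) and Ramp1 (93 and 380 reads, 1.94) and the ligand Adm (24 and 92 reads, 1.83) were higher, from low levels.

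Eng, the co-receptor endoglin of BMP9 and TGF-beta signalling, had 3564 and 4024 reads, 45.4 and 44.8 FPKM (log2 ratio 0.09, 0.03 to 0.16). Nos3, the endothelial nitric oxide synthase, had 1210 and 1323 reads, 13.3 and 12.7 FPKM (0.04, -0.07 to 0.16), and 32.3% of its exon bases overlap Atg9b and another gene on the other strand. Both had higher read counts but slightly lower FPKM in the knockdown library, and the sign of both turned negative with scaling by total counts or with FPKM. Acvrl1, the kinase receptor that works with endoglin, was lower (1893 and 1018 reads, log2 ratio -0.98, -1.09 to -0.87). Of 10 further nitric oxide and caveolae genes, 1 was lower (Gucy1a1, a subunit of the nitric oxide sensor, -0.72), 1 higher (Ddah1, which degrades inhibitors of nitric oxide synthases, 0.79) and 8 did not pass.

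**Figure D2:**
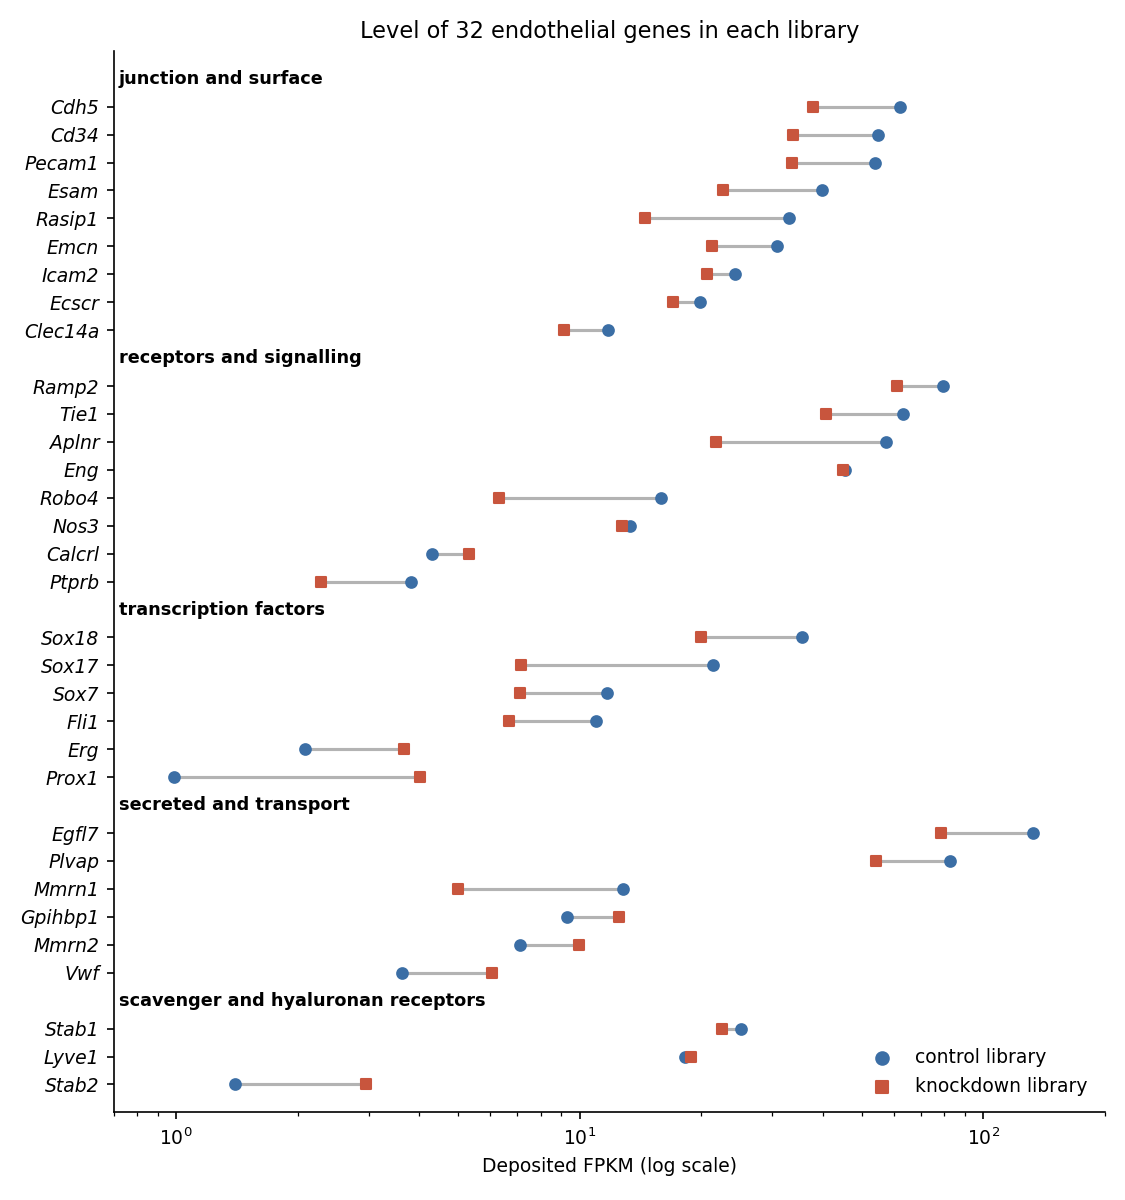
Deposited FPKM of the 32 genes (horizontal axis, log scale) in the control (circles) and knockdown library (squares), grouped by role; each point is 1 library. Most squares lie left of their circles, while Prox1, Stab2, Erg, Vwf, Mmrn2, Gpihbp1, Calcrl and, by little, Lyve1 lie to the right.

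Transcription factors split, and all 6 passed the rule. Of these, 4 were lower, 66.7% against 12.3% of measured genes, and 2 higher, 33.3% against 20.7%. Sox7 and Fli1, both among the lower ones, did not pass with DESeq2 size factors. Sox17, an arterial SOXF factor (chromosome 1, 4490928 to 4497426), had 1715 and 654 reads, 21.4 and 7.13 FPKM, and was 2.78-fold lower (log2 ratio -1.47, -1.61 to -1.34). That was the lowest ratio of the 32 genes, and 2.22% of measured genes had a lower one. Sox18 (1302 and 835 reads, 35.6 and 19.97 FPKM) was 1.65-fold lower (log2 ratio -0.72, -0.85 to -0.60). Sox7 (863 and 601 reads, 11.7 and 7.12 FPKM) was 1.52-fold lower (-0.61, -0.76 to -0.45). All 3 SOXF genes were lower in the knockdown library, and Sox17 by more than its relatives. It was 1.83-fold lower relative to Sox7 (difference of log2 ratios -0.87, -1.07 to -0.67) and 1.68-fold lower relative to Sox18 (-0.75, -0.93 to -0.57), whereas Sox7 and Sox18 differed by 0.12 (-0.08 to 0.32). Of the summed SOXF FPKM, Sox17 made up 31.1% in control lungs and 20.8% after knockdown. Exons of a predicted gene on the other strand overlap 16.8% of the exon bases of Sox17.

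The 2 ETS factors went in opposite directions. Fli1 (806 and 559 reads, 10.99 and 6.66 FPKM) was 1.53-fold lower (log2 ratio -0.61, -0.77 to -0.45). Erg (chromosome 16, 95359169 to 95586600; 208 and 419 reads, 2.09 and 3.67 FPKM) was 1.90-fold higher (0.92, 0.68 to 1.17). Erg made up 15.95% of the FPKM of the pair in control lungs and 35.5% after knockdown, and its ratio exceeded that of Fli1 by 1.54 on the log2 scale (1.25 to 1.83). Both genes are also known in blood progenitors and in other mesodermal tissue, and Erg in cartilage.

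Prox1, which specifies lymphatic endothelium (chromosome 1, 190118035 to 190170827), had the highest ratio of the 32 genes. It had 157 and 730 reads, 0.987 and 4.01 FPKM, and was 4.38-fold higher (log2 ratio 2.13, 1.88 to 2.39), while 93.2% of measured genes had a lower ratio. Prox1 is also known in hepatocytes and heart muscle, whose other markers were all higher in the same library (medians 7.40 and 5.66), and their part in the Prox1 value was not tested.

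**Figure D3:**
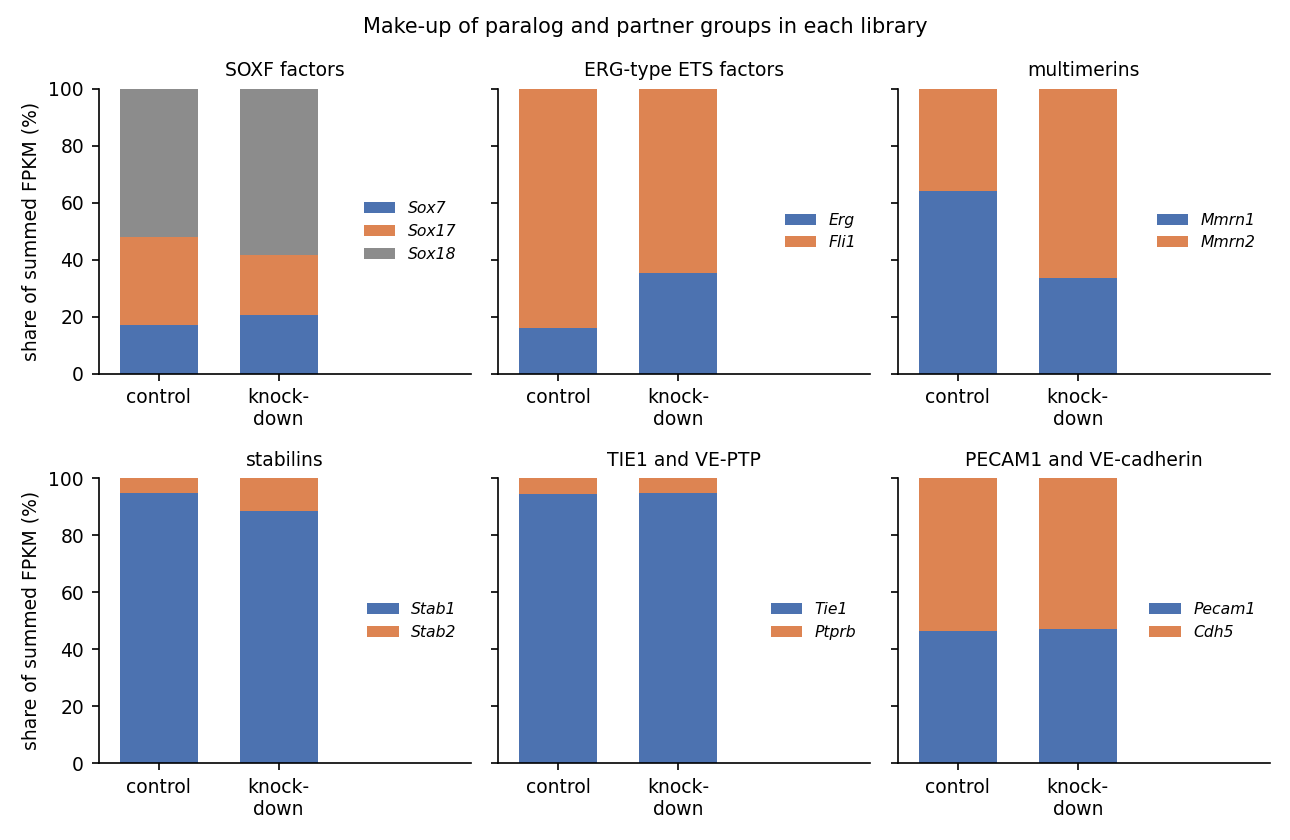
Share of each gene (vertical axis, percent) in the summed FPKM of its paralog or partner group, in the control and knockdown library. The SOXF, ETS, multimerin and stabilin groups shifted, with Mmrn1 at 64.2% and 33.5% of its pair, whereas Pecam1 with Cdh5 (46.4% and 47.0% for Pecam1) and Tie1 with Ptprb (94.3% and 94.7% for Tie1) kept nearly the same make-up.

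Secreted and transport proteins showed both directions, with 2 of 6 lower and 2 higher (median 0.02). Each count is 33.3%, against 12.3% lower and 20.7% higher among measured genes. Egfl7, a matrix-bound factor whose gene hosts the microRNA miR-126, had deposited FPKM of 133 and 78.5 (3960 and 2682 reads) and was 1.57-fold lower (log2 ratio -0.65, -0.72 to -0.58). Its FPKM were the highest of the 32 genes, but they rest on a length of 1323 bases against 3581 annotated exon bases, so its place in the order depends on the gene model. Plvap, which forms the diaphragms of fenestrae and caveolae, had 3859 and 2893 reads, 82.7 and 54.2 FPKM (-0.50, -0.57 to -0.43), and did not pass. Gpihbp1, which carries lipoprotein lipase to the capillary lumen, had 132 and 203 reads, 9.31 and 12.5 FPKM (0.54, 0.21 to 0.86), and did not pass either. The last 2 differed from each other: Plvap relative to Gpihbp1 was 2.05-fold lower (difference of log2 ratios -1.04, -1.37 to -0.71).

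The 2 multimerins changed their order between the libraries. Mmrn1, a large matrix protein of lymphatic endothelium and platelets (chromosome 6, 60944317 to 60989378), had 1339 and 599 reads, 12.8 and 5.003 FPKM, and was 2.37-fold lower (log2 ratio -1.24, -1.39 to -1.10). Mmrn2, a matrix protein of blood vessels (chromosome 14, 34375504 to 34404287), had 633 and 1009 reads, 7.12 and 9.93 FPKM, and was 1.503-fold higher (0.59, 0.44 to 0.73), at the edge of the rule. Mmrn1 was the more abundant of the pair in the control and Mmrn2 in the knockdown library, a shift of 3.56-fold (difference of log2 ratios -1.83, -2.04 to -1.63). Mmrn2 no longer passed with scaling by total counts (log2 ratio 0.48).

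Vwf, the von Willebrand factor of endothelium and platelets (chromosome 6, 125552948 to 125686679), had 717 and 1371 reads, 3.63 and 6.06 FPKM, and was 1.80-fold higher (log2 ratio 0.85, 0.72 to 0.98). All 5 measured megakaryocyte and platelet genes other than Vwf and Mmrn1 were higher as well, including F2rl2 (log2 ratio 3.45), Gp9 (2.38) and Gp5 (1.40). The reads of the 10 listed genes were 0.00238% of the control and 0.00591% of the knockdown library, and none was at 0. The platelet factor gene Pf4 had 3 and 13 reads. Mmrn1, which platelets also make, was lower. The part of platelets in the Vwf and Mmrn1 values was not tested.

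Of the 3 scavenger and hyaluronan receptors, Stab2 was higher and the other two did not pass the rule. Stab1, the scavenger receptor of sinusoidal endothelium and macrophages, had 4422 and 4545 reads, 25.1 and 22.6 FPKM (log2 ratio -0.04, -0.10 to 0.02). Lyve1, the hyaluronan receptor of lymphatic endothelium, had 1074 and 1270 reads, 18.2 and 18.9 FPKM (0.16, 0.04 to 0.28). Stab2, a scavenger receptor best known from liver sinusoids (chromosome 10, 86841194 to 87008038), had 257 and 619 reads, 1.40 and 2.95 FPKM, and was 2.27-fold higher (1.18, 0.97 to 1.40). The ratio of Stab2 exceeded that of Stab1 by 1.23 on the log2 scale (1.01 to 1.45).

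Markers of liver sinusoidal endothelium other than Stab2 and Lyve1 were higher in 5 of 9 measured genes and lower in 1 (median 0.92). Oit3 had 16 and 351 reads (log2 ratio 4.33), Gata4 408 and 3199 (2.89), the ficolin Fcna 53 and 375 (2.73) and Rspo3 73 and 320 (2.04). Gata4 is also a gene of the heart. The lower one was Wnt2 (2827 and 740 reads, -2.02), which lung mesenchyme also expresses. The 12 listed genes took 0.0214% of the control and 0.0271% of the knockdown reads, and Cd209b was at 0 in both. Macrophage genes other than Stab1 and Lyve1 were higher in 8 of 10 cases (median 1.02, 0.0243% and 0.0461% of reads), with Lyz2 (1.29), C1qa (1.26), C1qc (1.24) and C1qb (1.20), and none was at 0. The part of either list in the values of Stab1, Stab2 and Lyve1 was not tested.

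The listed lymphatic markers went in both directions. Among the 32 genes, Prox1 and Stab2 were higher, Mmrn1 was lower, and Lyve1 and Stab1 did not pass. Each of these is also listed here for another cell type. Prox1 is listed for hepatocytes and heart muscle, Stab2 for liver sinusoids, Mmrn1 for platelets, and Lyve1 and Stab1 for macrophages. The part of those cells in these values and in the pairs below was not tested. Prox1 relative to Lyve1 was 3.93-fold higher (difference of log2 ratios 1.98, 1.70 to 2.26) and Lyve1 relative to Mmrn1 was 2.64-fold higher (1.40, 1.22 to 1.59). Of 7 further measured markers of lymphatic endothelium 4 were higher, namely the matrix protein Reln (121 and 1523 reads, log2 ratio 3.56), Nts (17 and 96 reads, 2.38), Thy1 (68 and 322 reads, 2.15) and the valve factor Foxc2 (175 and 460 reads, 1.31). The integrin chain Itga9 (-0.82) and the VEGF-C receptor Flt4 (-0.62) were lower. Several of these, Reln, Nts and Thy1 among them, are also known outside lymphatic vessels. The chemokine Ccl21a had 3 reads in each library.

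**Figure D4:**
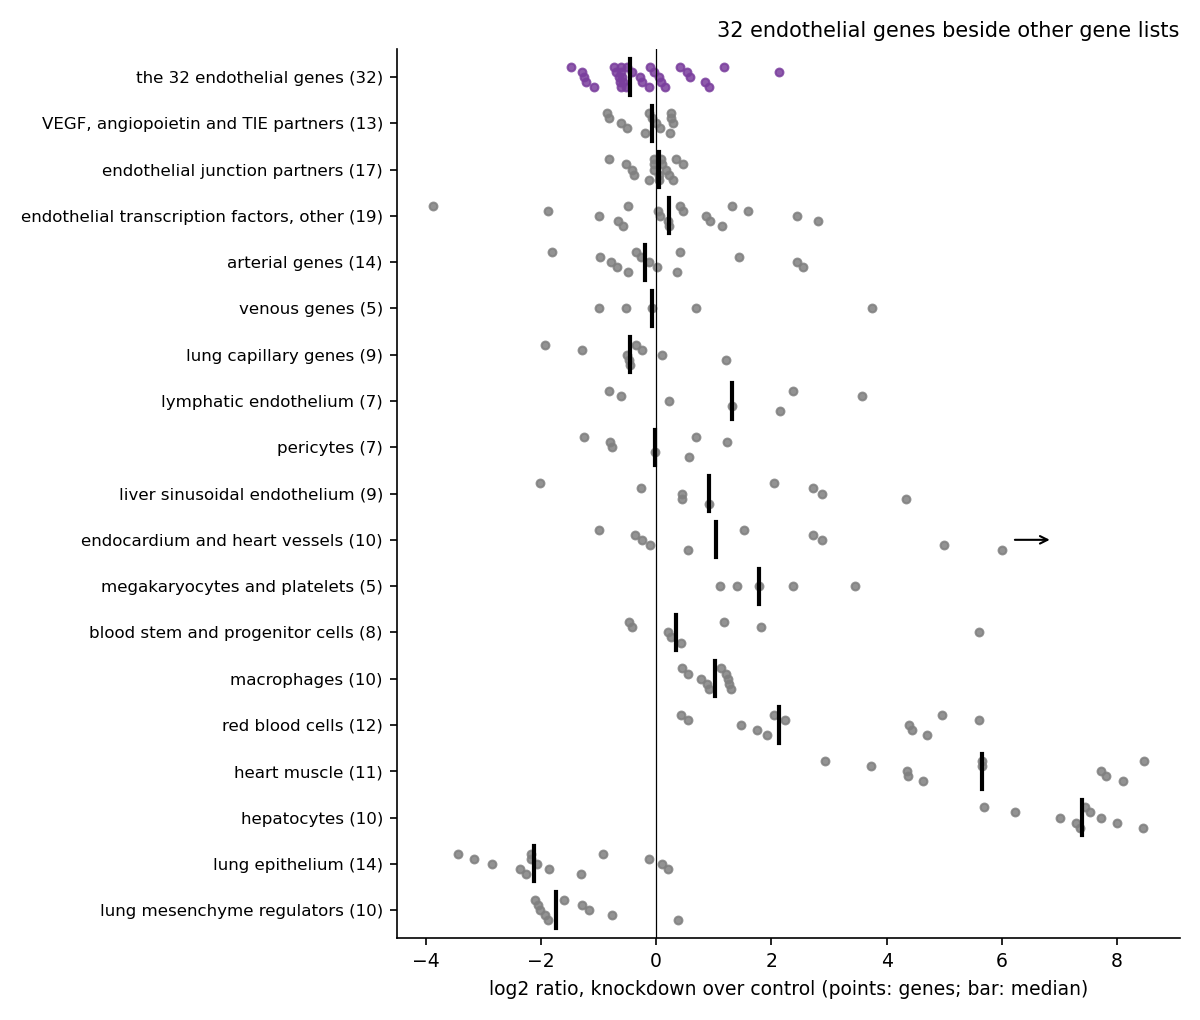
Log2 ratio of knockdown over control (horizontal axis) for the 32 genes (top row) and for measured genes of the other lists without those 32; points are genes, bars are medians and the number of genes is in brackets. The arrow marks Bmp10, which had 0 control reads and is placed at its lower bound.

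The subtype lists of blood vessels likewise showed both directions. Among 14 arterial genes 4 were lower, namely Notch4 (64 and 19 reads, log2 ratio -1.81), Acvrl1 (-0.98), Efnb2 (-0.78) and Sema3g (-0.68), and 3 were higher, namely Bmx (21 and 133 reads, 2.55), Hey2 (2.45) and the connexin Gja5 (1.43), with a median of -0.20. Of 5 measured venous genes outside the 32, Nr2f2, the factor that sets venous identity, was lower (5641 and 2992 reads, -0.999), and Ackr1 (25 and 360 reads, 3.74) and Flrt2 (0.70) were higher. Heart muscle, red blood cell and lung mesenchyme genes also differed between the libraries. Their part in the arterial and venous values was not tested. Of 9 measured capillary genes outside the 32, Tbx2 (-1.93) and Apln (-1.29) were lower and Hpgd (1.20) higher, with a median of -0.46. Tbx2 is also a gene of lung mesenchyme. The capillary gene Car4 had 7 and 13 reads. Endocardium and heart vessel genes other than Plvap were higher in 5 of 10 cases and lower in 1 (median 1.04, 0.0246% and 0.0410% of reads). They included Fabp4 (27 and 927 reads, log2 ratio 4.99), Gata4 (2.89), Cd36 (2.72) and Bmp10 (0 and 204 reads). The Bmp10 level was at least 64.1-fold higher when 3 control reads are taken as the limit of a count of 0. Bmp10 is a ligand of heart muscle. The lower one was Hapln1 (-0.99). Plvap, which the endocardium also expresses, had a log2 ratio of -0.50. The part of the endocardium in the Plvap value was not tested.

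By deposited FPKM the higher genes were among the least abundant in the control. The 5 higher genes stood at ranks 26 (Mmrn2), 29 (Vwf), 30 (Erg), 31 (Stab2) and 32 (Prox1) of 32 by control FPKM. Rank and ratio share the control count, so this is a description, and ranks depend on the gene lengths behind the FPKM. The median over the 32 genes was 20.6 FPKM in control lungs and 15.7 FPKM after knockdown.

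Of the 32 genes, 8 are also listed here for hepatocytes, heart muscle, macrophages, platelets or blood progenitors (Cd34, Erg, Fli1, Lyve1, Mmrn1, Prox1, Stab1 and Vwf). Among the other 24 genes, 10 were lower, 41.7% against 12.3% of measured genes, with a median of -0.51. Stab2 and Mmrn2 were higher, 8.33% against 20.7%. Stab2 and Plvap count among these 24, although they are on the liver sinusoid and endocardium lists. In the 8 shared genes the counts were 3 lower and 3 higher (37.5% each, median 0.06). The part of other cell types in this contrast was not tested.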

How the data were processed

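Whole-lung polyadenylated RNA was, per the labels' protocols, isolated with TRIZOL, and libraries were built with a NEBNext Ultra kit. TopHat2 2.0.12, HTSeq 0.6.1, Bowtie2 2.2.3 and the mm10 build are listed, without roles, in the submitters' processing notes. For annotation, strand setting and multi-mapped reads, the sources used here state nothing. The authors deposited raw counts per gene and FPKM; per the file headers both tables have 1 column per library. The deposited FPKM equalled count over gene length and library total: implied lengths were whole within 0.001 bp in 100% of 22831 genes, so FPKM is no second measurement.

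Symbols came from RefSeq (GRCm38.p6), which matched 40269 of 41709 entries. The lengths implied by the FPKM were within 10% of the annotated exon union (GENCODE M21) for 13 of the 32 genes; shorter ones raise FPKM and leave ratios alone. Libraries were scaled by edgeR 4.0.16 (TMM factors 1.04 and 0.963; R 4.3.3), with a prior count of 0.5 and exact Clopper-Pearson intervals (95%). PCR copies are not independent molecules, so intervals and the floor of 3 counts cover counting error only. Differences between 2 genes' log2 ratios are odds ratios with exact conditional intervals (scipy 1.17.1).

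Members, lists and rules were chosen with earlier results of these data known. All 32 members are reported; other lists name up to 4 genes in each direction past the rule whose interval bound lies farthest from 1, except 1 gene that is not reported here. Genes named beyond that rule (Ccl21a, Car4, Pf4, Cd209b, Kit, Gata2), the pairs compared and the printed promoters were chosen after values were seen. Of 19 promoter windows, 17 had their bases after the start in an annotated transcript of the gene; both Prox1 windows did not. A planned comparison of SOXF proteins was not run. Alternatives covered scaling, including DESeq2 1.42.0 size factors, the prior count, FPKM, read minimum, ratio, interval, the mean and the members included.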

Additional observations from a re-analysis of the deposited data

How the results depend on the processing

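The direction of the median over the 32 genes held in every setting tried. It was -0.57 with total counts, -0.57 with FPKM at a pseudocount of 0.1 and -0.23 as a mean in place of a median. With total counts the all-gene median moved by -0.11 (log2), and the members' median relative to that of all genes was -0.45 with each scaling of the counts. The share of higher genes among all measured genes past the rule was 62.7%, and 52.3% with total counts, 53.0% with FPKM at a pseudocount of 0.1 and 74.4% at a ratio of 2. Across scalings the number of lower members ranged from 9 with DESeq2 size factors to 16 with total counts, and at a ratio of 2 the counts were 5 lower and 2 higher. Without the members of other cell type lists 2 were higher. Over 6 scaling, prior and FPKM settings, 8 of 13 lower genes (Sox17, Aplnr, Mmrn1, Robo4, Rasip1, Sox18, Esam and Egfl7) and 4 of 5 higher genes (Prox1, Stab2, Erg and Vwf) passed in each. Cdh5, Sox7, Fli1 and Cd34 fell short with DESeq2 size factors, Ptprb with FPKM at a pseudocount of 1, and Mmrn2 with total counts, FPKM, or totals without red blood cell, hepatocyte and heart muscle genes. Pecam1, Tie1 and Plvap passed as lower with total counts and with FPKM, and Pecam1 also with those reduced totals. No member past the rule changed sign, while Eng and Nos3 did, to -0.02 and -0.07 with total counts. Depth limits Gpihbp1 and Prox1 most, with 132 and 157 control reads. No replicate could be left out, because each group has 1 library. No paired analysis was possible because each group has 1 library.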

Other observations

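Of 19 endothelial transcription factors outside the 32 genes 7 were higher in the knockdown library and 4 lower, with a median log2 ratio of 0.23. The highest were Tal1 (472 and 3489 reads, 2.80), Hey2 (89 and 517 reads, 2.45), Lyl1 (467 and 1496 reads, 1.59) and Foxc2 (175 and 460 reads, 1.31). Tal1 and Lyl1 are also known in red cell precursors, whose markers were higher in the same library (10 of 12, median 2.14), and that part was not tested. The lower ones were Ets2 (435 and 31 reads, log2 ratio -3.87, -4.47 to -3.37), Hhex (71 and 20 reads, -1.89), Nr2f2 (-0.999) and Heyl (-0.66). A part of heart muscle or lung mesenchyme in the values of these higher and lower factors was not tested. Ets2, an ETS factor expressed in many tissues, had a ratio below that of every one of the 32 endothelial genes.

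Pericytes, which wrap capillaries, had 3 of 7 measured genes lower and 2 higher (median -0.03). Notch3 (7025 and 3137 reads, log2 ratio -1.25), Pdgfrb (4337 and 2644 reads, -0.80) and Cox4i2 (-0.77) were lower, and Abcc9 (423 and 1050 reads, 1.23) and Rgs5 (0.70) higher. Of 8 blood progenitor genes outside the 32 none was lower and 3 were higher, Gfi1b (14 and 744 reads, 5.599), Myb (1.83) and Spi1 (1.18), while Kit (1336 and 1018 reads, -0.48) and Gata2 (399 and 487 reads, 0.20) did not pass.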
